A study of Mus musculus with 3 samples.

Results

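The choroid plexus epithelium (CPE) is the epithelial layer that lines the choroid plexus in the brain ventricles, secretes cerebrospinal fluid and forms the barrier between blood and that fluid. The genes described here are the ligands and receptors of the fibroblast (FGF), vascular endothelial (VEGF), platelet-derived (PDGF) and epidermal growth factor (EGF) families, with the angiopoietins, hepatocyte growth factor, stem cell factor and their receptors. Within these families, genes were taken by their symbol on the array, and no measured value enters that rule. A total of 54 genes with 104 probes was found, of 19737 genes with a RefSeq name and 41174 probes in all.

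These families share 1 plan of signalling. A secreted or membrane-bound ligand pairs 2 receptor tyrosine kinases, which phosphorylate each other and pass the signal through adaptors to the Ras and MAP kinase cascade and to PI3 kinase and Akt. In the choroid plexus, the stroma under the epithelium holds fenestrated capillaries, and VEGF made by epithelia is known to maintain such capillaries, there as in the choroid of the eye. PDGF ligands act mainly on pericytes and fibroblasts, FGFs on epithelium and mesenchyme, and EGF ligands on epithelia.

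CPE of 3 healthy adult C57BL/6 mice was cut by laser dissection from 20 um cryosections of the brain, its RNA was amplified and labelled with Cy5, and the RNA of each mouse went onto 1 Agilent whole-genome array on its own slide. The other channel, Cy3, held on every array the same C57BL/6 reference RNA, of the eye's retinal pigment epithelium (RPE) with choroid. No treatment or genetic change was given, and there was no dye swap, which leaves any dye preference of a probe in its ratio. The reference is a mixture of tissues of another organ and is no control of the CPE.

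All 10 CPE markers found on the array, of 12 listed, were in the high class, and 9 were higher than the reference, with *Otx2* at a log2 ratio of 0.14. The arrays were unequal in signal. The scanner's flag put 58 of the 104 probes well above background in the CPE of mouse 1, 43 in mouse 2 and 91 in mouse 3, and 71, 66 and 92 in the reference channel. On all 3 arrays 41 of the 104 probes passed in the CPE (39.4%, against 44.9% of all probes). None was saturated. The number of arrays, 3, limits the precision of every value below.

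A pair of measures is given for each gene, from the probe with the brightest signal over both channels. The first is the percentile of its CPE intensity among all probes, called high above 90, moderate from 50, low from 10 and very low below that. Probes hybridise unequally, so the percentile places a probe on the array and gives no order of abundance between genes. The percentile given for a gene is that of its mean level over the mice. The second is the log2 ratio of CPE over reference, tested against 0 with limma where all arrays showed the probe well above background in the CPE, the reference or both. "Higher" and "lower" below mean 2-fold or more at an adjusted p below 0.05. In bulk RNA of this kind, fewer cells of a type and less RNA per cell cannot be told apart.

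Of the 54 genes, 8 were in the high class: the ligands *Vegfa*, *Vegfb*, *Pdgfa* and *Pdgfd* and the receptors *Flt1*, *Kdr*, *Pdgfra* and *Pdgfrb*. That is 14.8%, beside 16.8% of all 19737 genes. A further 28 genes were moderate, 17 low and 1 very low. In the ratio test, 6 genes were higher in CPE (*Fgf18*, *Angpt2*, *Tie1*, *Pdgfa*, *Pdgfb* and *Pdgfd*) and 7 were lower (*Fgf1*, *Fgf9*, *Fgf12*, *Fgf13*, *Egfr*, *Erbb3* and *Kitl*). These were 15.8% and 18.4% of the 38 genes tested, beside 9.1% and 11.3% of all 14561 genes tested. Counted over probes, 6 of 59 were higher and 7 lower, beside 7.09% and 10.2% of all 25847 probes tested. The median log2 ratio of the 59 probes was -0.11, and that of all tested probes -0.04.

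**Figure D1:**
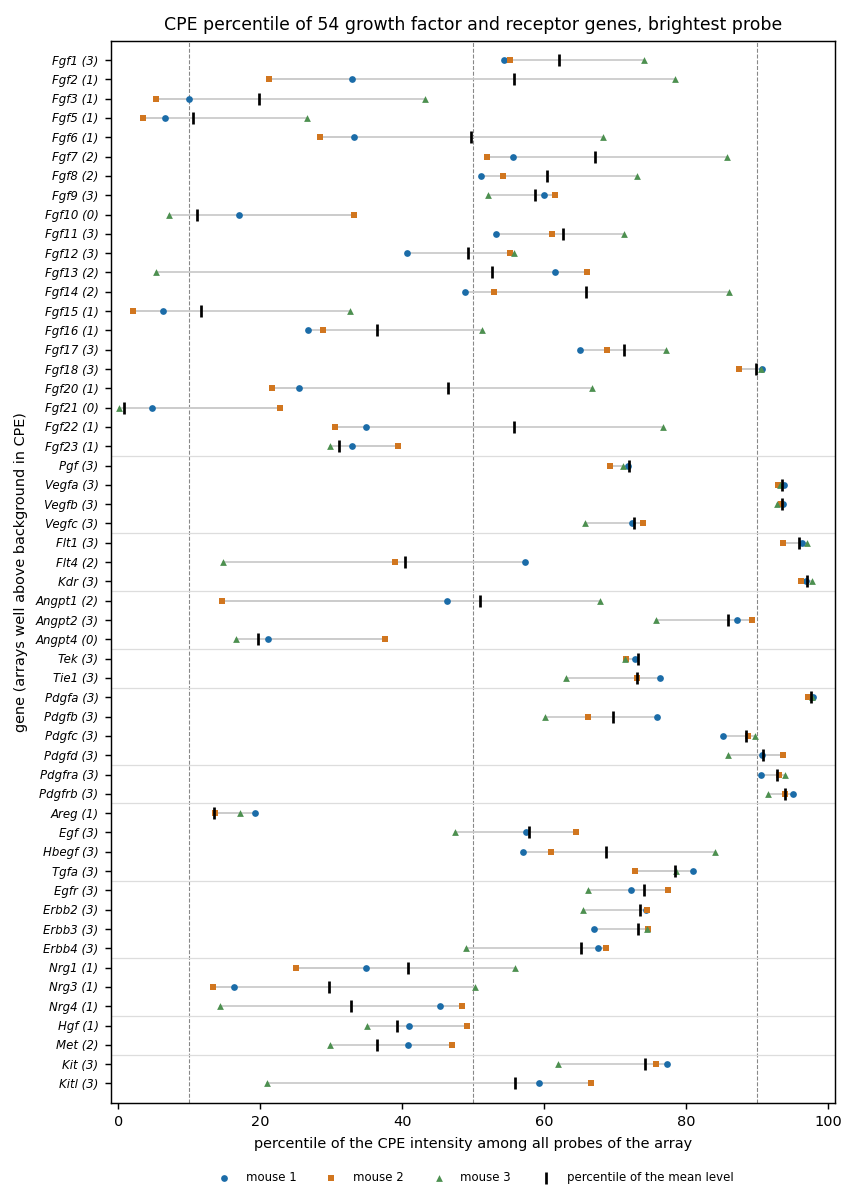
Percentile of the CPE intensity among all probes of the array (x axis) for the brightest probe of each of the 54 genes, grouped by role from the FGF ligands at the top to stem cell factor and its receptor at the bottom. Symbols are the 3 mice, the black bar is the percentile of the mean level, dashed lines mark percentiles 10, 50 and 90, and the number after a gene counts the arrays on which it was well above background in CPE. The black bars of the 8 genes of the high class lie right of the last line, and mouse 3 of *Pdgfd* lies left of it. *Fgf2*, *Fgf6*, *Fgf20* and *Fgf22*, each well above background on 1 array, have their mice far apart.

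Among the PDGF ligands, which drive growth of mesenchymal and mural cells, 3 of 4 were higher in CPE than in the reference, by 2.18-fold to 3.58-fold. *Pdgfa* stood at percentile 97.8, 97.2 and 97.7 in mice 1, 2 and 3. Its log2 ratio was 1.31, 0.78 and 1.28, with a mean of 1.12 ± 0.17 (SE, n = 3; limma adjusted p = 0.00202). All mice were above 0 and lay close together. The probe lies at chr5:139230717-139230776 (mm8, minus strand), and a probe 2103 bases nearer the 5' end of the gene gave 0.79, in the same direction but under 2-fold (1.32 and past it with each array centred on its median in place of loess).

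*Pdgfd*, which encodes a ligand secreted in latent form and activated by proteolysis, stood at percentile 90.7, 93.7 and 85.9, and without mouse 2 it left the high class. The log2 ratio was 1.82, 2.57 and 1.13, on average 1.84 ± 0.26 (limma adjusted p = 0.00142). It was measured at chr9:6378717-6378776 (mm8, plus strand), and a probe 1791 bases upstream gave 0.93, or 1.20 and past the threshold with median centring. *Pdgfb*, the ligand by which endothelium recruits pericytes, was of moderate percentile (76.0, 66.2 and 60.2). Its ratios of 2.40, 1.83 and 0.29 were spread widely, with mice 1 and 2 far above mouse 3 and a mean of 1.5 ± 0.36 (limma adjusted p = 0.0133). Its reference signal was well above background on 2 of the 3 arrays, and without mouse 1 it was not past the threshold.

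*Pdgfc*, the other latent ligand, missed the 2-fold threshold with 2 probes at 0.75 and 0.88 (limma adjusted p = 0.00879 and 0.00907). Its mice were 0.63, 0.99 and 0.62 for the brightest probe, so all were above 0. Another probe, above background on 1 array in each channel, gave -0.17. With median centring in place of loess both tested probes were past the threshold, at 1.27 and 1.31, and the dimmer of them also passed without mouse 3 and with the scanner's ratio.

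Both PDGF receptors were in the high class and neither reached 2-fold. For *Pdgfra*, found on fibroblasts and glial progenitors, the percentiles were 90.6, 93.1 and 94.0 and the log2 ratios 0.44, 0.74 and 0.76, with a mean of 0.65 (95% interval 0.28 to 1.01, limma adjusted p = 0.0144). *Pdgfrb*, the receptor of pericytes and smooth muscle, had percentiles of 95.04, 94.0 and 91.6 and ratios of 0.79, 0.86 and 0.23, on average 0.62 (0.21 to 1.04, limma adjusted p = 0.0279). The mice of both genes were all above 0. With median centring in place of loess both passed, at 1.26 and 1.29. A second *Pdgfra* probe, well above background on 1 array in each channel, stood at percentile 34.7. Mural cell markers were well above background in all 8 cases, with *Notch3* higher, *Myh11* lower and a median log2 ratio of 0.20. Their summed intensity, normalised between arrays only, ranged from 4512 to 18090 in the CPE channel and from 9719 to 13777 in the reference channel. Such a sum lacks the background correction and loess of the ratios, so its channels cannot be compared with each other. Stroma markers were lower in 5 of 6 cases, with a median of -1.80. The part of these cells in the PDGF values was not tested.

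The promoters of ligands with higher CPE signal are shown because 3 of 4 PDGF ligands and *Fgf18* were higher than the reference. Each is the 250 bases before a RefSeq start (GRCm38.p6), printed on the gene's strand. *Pdgfa* has 2 starts in the table, *Pdgfb* and *Angpt2* have no entry. Capitals mark 2 motifs searched on both strands: the Sp1 core GGGCGG (or CCGCCC), held by 32.7% of 32851 promoters of this length, and the TATA box TATAAA (or TTTATA), held by 12.4%. The hypoxia response core ACGTG (or CACGT), held by 16.6%, was searched as well.
Pdgfa, chr5:138994945-138995194, minus strand: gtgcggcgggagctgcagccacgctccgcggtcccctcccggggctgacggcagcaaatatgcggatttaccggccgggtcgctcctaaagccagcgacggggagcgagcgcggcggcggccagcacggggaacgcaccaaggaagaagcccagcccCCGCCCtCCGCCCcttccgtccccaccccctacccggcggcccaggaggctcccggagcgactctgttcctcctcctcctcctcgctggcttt
Pdgfa, chr5:138994282-138994531, minus strand: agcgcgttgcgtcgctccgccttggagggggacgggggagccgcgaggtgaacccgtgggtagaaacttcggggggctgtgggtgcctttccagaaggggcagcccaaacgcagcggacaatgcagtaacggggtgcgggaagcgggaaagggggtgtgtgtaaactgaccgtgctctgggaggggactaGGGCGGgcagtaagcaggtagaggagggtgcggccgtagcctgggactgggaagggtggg
Pdgfd, chr9:6168236-6168485, plus strand: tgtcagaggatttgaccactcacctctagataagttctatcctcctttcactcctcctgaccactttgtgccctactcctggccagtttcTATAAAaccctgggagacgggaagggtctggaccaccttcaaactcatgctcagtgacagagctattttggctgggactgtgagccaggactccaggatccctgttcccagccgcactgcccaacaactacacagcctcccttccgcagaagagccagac
Fgf18, chr11:33147401-33147650, minus strand: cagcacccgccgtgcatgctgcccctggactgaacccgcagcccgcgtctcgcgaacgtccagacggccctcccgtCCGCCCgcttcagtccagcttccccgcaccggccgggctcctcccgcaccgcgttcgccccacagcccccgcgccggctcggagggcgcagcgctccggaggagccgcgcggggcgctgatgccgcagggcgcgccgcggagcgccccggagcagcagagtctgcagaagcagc
Both *Pdgfa* windows and that of *Fgf18* held the Sp1 core, and their GC contents were 72.4%, 66.4% and 77.2%. The *Pdgfd* window held a TATA box and no Sp1 core, at 53.6% GC. No window of the 4 held the hypoxia core, which says only that these letters are not in them. Neither the Sp1 core nor the TATA box was particular to genes with higher CPE signal. Of the genes lower in CPE, *Egfr*, *Kitl* and some windows of *Fgf12* and *Fgf13* held the Sp1 core. The *Kitl* window held a TATA box as well, and that of *Fgf9* held neither motif. The array measured transcripts and not the activity of any promoter.

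*Vegfa*, the main growth factor of endothelium, and *Vegfb*, its relative that binds only *Flt1* among the VEGF receptors, were both high in CPE and neither was past the 2-fold threshold. The percentiles of *Vegfa* were 93.7, 92.9 and 93.3, and its log2 ratios were -0.76, -1.02 and -1.03. The mean was -0.94 (95% interval -1.30 to -0.58, limma adjusted p = 0.00281), a reference signal 1.92 times that of CPE. Without mouse 1 the mean was -1.03 and past the threshold (limma adjusted p = 0.0143). Its other probes gave -0.80 and -0.31, in the order of their position toward the 5' end. *Vegfb* stood at 93.7, 93.5 and 92.9, with ratios of -0.82, -0.60 and -0.71 (mean -0.71, limma adjusted p = 0.00862). A second *Vegfb* probe, also in the high class at 91.1, had ratios of 0.55, 0.14 and 0.39. The 2 probes of this gene had opposite signs in all 3 mice, and for the second the mean of 0.36 was not past the threshold (limma adjusted p = 0.113). With median centring the ratio of *Vegfa* was -0.22 and those of *Vegfb* were 0.0034 and 0.96, none past the threshold. *Vegfc*, a lymphatic growth factor, and *Pgf*, placental growth factor, were moderate at 72.6 and 72.0, with log2 ratios of -0.59 and -0.49.

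Of the 3 VEGF receptors, 2 had their brightest probe near the top of the array, and neither passed the threshold against the reference. *Kdr*, which carries most VEGF signals in endothelium, had percentiles of 96.9, 96.2 and 97.7. Its log2 ratios of -0.09, -0.49 and 0.01 gave a mean of -0.19 with a 95% interval from -0.58 to 0.20 (limma adjusted p = 0.405). *Flt1*, a receptor that binds VEGF tightly and signals weakly, had percentiles of 96.4, 93.7 and 97.1 and ratios of 0.11, -0.64 and 0.21, with a mean of -0.11 and an interval from -0.58 to 0.36 (limma adjusted p = 0.711). Mouse 2 was the lowest for both genes. The sign of both means depends on the scaling. With each array centred on its median in place of loess, they were 0.58 for *Kdr* and 0.62 for *Flt1*, still not past the threshold. Other *Flt1* probes stood at percentiles 86.2, 80.9, 26.5 and 7.6, and those tested gave log2 ratios of 0.34 and -0.02. A second *Kdr* probe, at percentile 33.9, was well above background on 1 CPE array. *Flt4*, the lymphatic receptor, was low in CPE (57.3, 39.0 and 14.7) and well above background there on 2 arrays. In the reference it was not well above background on any array, so its mean fold was only bounded, at least 1.81-fold higher. Its log2 ratios were 1.70, 0.63 and 0.53, so mouse 1 lay far above the others. Without mouse 2 it was tested and passed as higher.

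**Figure D2:**
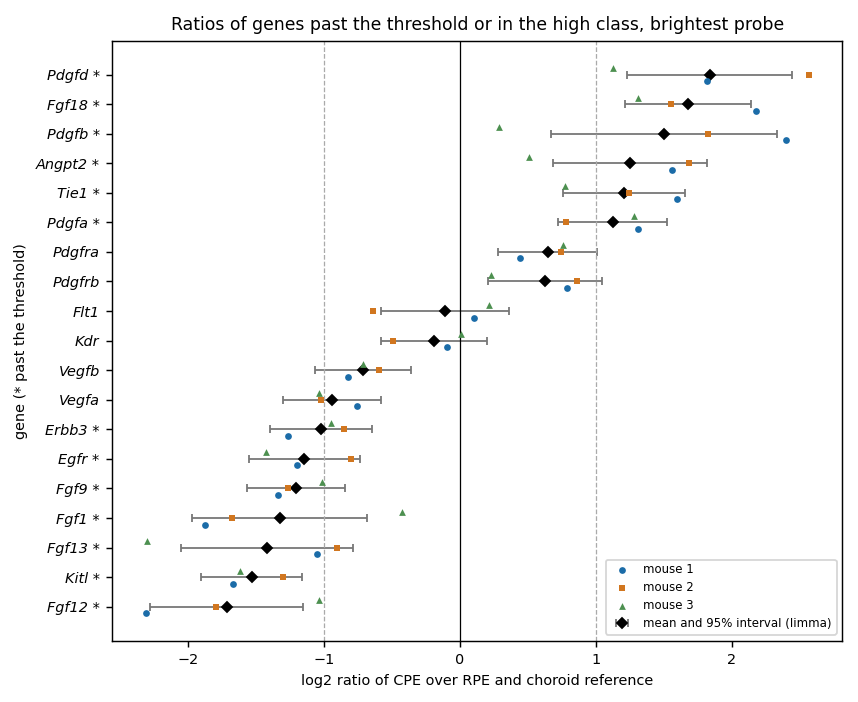
Log2 ratio of CPE over the RPE and choroid reference (x axis) for the 19 genes that passed the threshold (asterisk) or were in the high class. Coloured symbols are single mice, diamonds the mean and bars the 95% interval of the limma fit, and dashed lines mark 2-fold; the symbols of 1 gene keep to 1 side of 0 except for *Flt1* and *Kdr*.

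The angiopoietins and their Tie receptors control how stable vessels are. *Angpt2*, which loosens vessels in many settings, was higher in CPE by 2.38-fold, with percentiles of 87.2, 89.2 and 75.8. Its log2 ratios were 1.56, 1.69 and 0.51, a mean of 1.25 ± 0.24 (limma adjusted p = 0.00578), and mouse 3 was the lowest. *Tie1*, the endothelial receptor that modulates *Tek*, was higher by 2.31-fold with ratios of 1.60, 1.24 and 0.78 (mean 1.21 ± 0.19, limma adjusted p = 0.0024) at percentiles 76.3, 73.1 and 63.1. *Tek* itself, the angiopoietin receptor, lay at -0.16, -0.46 and -0.37, with a mean of -0.33 (95% interval -0.69 to 0.03, limma adjusted p = 0.129), and with median centring at 0.03. *Angpt1*, the ligand that stabilises vessels, was at 0.09, or -0.02 with median centring. *Angpt4* was not well above background in either channel on any array.

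Endothelial markers did not all go the same way. All 10 were well above background in CPE on every array, with a median log2 ratio of 0.83. *Eng* and *Plvap* were higher, *Vwf* was lower, and 7 did not pass the threshold. Their summed intensity, again without background correction or loess, was 13765 to 17496 in the CPE channel and 5983 to 7586 in the reference channel. The channels of this sum cannot be compared with each other. The part of endothelium in the levels of *Kdr*, *Flt1*, *Tie1*, *Angpt2* and *Pdgfb* was not tested.

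The FGF ligands were the largest family, with 21 genes, and none was in the high class. Only 6 were well above background in CPE on all arrays (*Fgf1*, *Fgf9*, *Fgf11*, *Fgf12*, *Fgf17* and *Fgf18*). *Fgf18*, which promotes growth of cartilage, bone and lung mesenchyme, was the one higher in CPE, by 3.2-fold, and stood just under the high class at 89.8 (mice 90.6, 87.4 and 90.6), which it entered without mouse 2. Its log2 ratios of 2.18, 1.55 and 1.31 had a mean of 1.68 ± 0.20 (limma adjusted p = 0.000611), measured at chr11:33017441-33017500 (mm8, minus strand). All 3 mice were above 2-fold.

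Lower in CPE were 4 FGF genes. *Fgf12* and *Fgf13* encode intracellular FGF homologous factors, which bind sodium channels and are abundant in neurons. *Fgf12* had log2 ratios of -2.31, -1.79 and -1.04 (mean -1.71 ± 0.24, limma adjusted p = 0.00138), and it was lower by more than 2-fold in every mouse. For *Fgf13* they were -1.05, -0.90 and -2.30 (mean -1.42 ± 0.27, limma adjusted p = 0.00545), with mouse 3 far below the others. The CPE percentiles of this probe were 61.5, 66.1 and 5.3, and its CPE signal was not well above background on 1 array. Without mouse 3 this gene was not past the threshold. Other probes of *Fgf13*, also tested, had means of -0.18 and -0.04 (limma adjusted p = 0.46 and 0.88). The other intracellular factors, *Fgf11* and *Fgf14*, were at -0.99 and 0.09. *Fgf11* passed as lower without mouse 3 (-1.22), with array weights and with the scanner's ratio, and *Fgf14* was at -0.06 with median centring. A second *Fgf11* probe, well above background on every array in both channels, had the opposite sign in every mouse. Its ratios were 0.15, 0.36 and 0.12 (mean 0.21, limma adjusted p = 0.319). Neuron markers were lower in 4 of 5 cases with a median of -3.56, and photoreceptor markers were lower in 7 of 7. Without background correction or loess, the summed neuron intensity was 1908 to 3554 in CPE and 13065 to 16647 in the reference. The channels of this sum cannot be compared with each other. The part of neurons and photoreceptors in the FGF values was not tested.

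*Fgf1*, a broadly acting FGF that binds all FGF receptors, had log2 ratios of -1.87, -1.68 and -0.43, with a mean of -1.33 ± 0.28 (limma adjusted p = 0.00775). Mouse 3 lay nearest to 0. *Fgf9*, an epithelial signal to mesenchyme in several organs, was at -1.34, -1.26 and -1.02 (mean -1.21 ± 0.16, limma adjusted p = 0.000921), with the mice close together, and with median centring it was at -0.95, just short of 2-fold. *Fgf10*, a mesenchymal signal to epithelium, was well above background on no CPE array and on all reference arrays, which allows only a bound, at least 1.77-fold lower. Its fitted log2 ratio was -0.83 (limma adjusted p = 0.00615), and it passed as lower with median centring (-1.12) and with the scanner's ratio (-2.78). Among the remaining FGF genes, *Fgf17* was at 0.57 and *Fgf7* at 0.04 (-0.02 with median centring), and 11 had no test: *Fgf2*, *Fgf3*, *Fgf5*, *Fgf6*, *Fgf8*, *Fgf15*, *Fgf16*, *Fgf20*, *Fgf21*, *Fgf22* and *Fgf23*.

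No EGF family ligand was past the threshold after loess. *Tgfa*, transforming growth factor alpha, was at 1.18, 0.39 and 0.56 (mean 0.71, limma adjusted p = 0.0225). It passed as higher with median centring (1.04) and with the scanner's ratio (1.13). *Hbegf*, the heparin-binding ligand, was at -0.90, -0.60 and -0.20 (mean -0.57, limma adjusted p = 0.0406). Its CPE level varied most between arrays among the 40 probes measured in both channels, with an SD of 1.32 on the log2 scale. Mouse 3, whose array had the most probes well above background, stood apart at 10.2, against 7.95 and 7.85. The SD of the *Hbegf* ratios was 0.35. Outside the 40, a probe of *Fgf14* varied more (SD 1.65), and there too mouse 3 was the highest. *Egf* and *Areg* were at 0.02 and -0.42, and *Areg* passed as lower with the scanner's ratio (-1.51). The neuregulins *Nrg1*, *Nrg3* and *Nrg4*, ligands of *Erbb3* and *Erbb4*, were all in the low class.

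The 4 ERBB receptors were all moderate, with percentiles from 65.2 to 74.1. *Egfr*, the receptor of EGF and *Tgfa*, was lower in CPE by 2.21-fold, with ratios of -1.20, -0.80 and -1.43 (mean -1.14 ± 0.17, limma adjusted p = 0.00202), and with median centring it was at -0.65, not past the threshold. The other *Egfr* probes had means from -0.59 to -0.0013 after loess, none past the threshold. *Erbb3*, a receptor with little kinase activity of its own, was lower at -1.27, -0.85 and -0.95 (mean -1.02 ± 0.16, limma adjusted p = 0.00229). *Erbb2*, the coreceptor that binds no ligand, was at 1.00, 0.94 and 0.27 (mean 0.74, limma adjusted p = 0.019) and *Erbb4* at 0.44, neither past the threshold, though *Erbb2* reached it with median centring (1.00) and with the scanner's ratio (1.05). The *Erbb3* value rests on 1 probe, designed on a predicted transcript at chr10:127970642-127970701 (mm8, minus strand), while the other 4 probes of the gene had means from -0.04 to 0.24 and were well above background on 1 CPE array each. That probe lies 2532 bases beyond the nearest of the others, and whether it reports *Erbb3* or another transcript was not tested. It did not pass without mouse 1 (-0.90) or with median centring (-0.61).

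*Kitl*, stem cell factor, was lower in CPE by 2.89-fold. Its log2 ratios of -1.67, -1.30 and -1.62 were close together (mean -1.53 ± 0.16, limma adjusted p = 0.000339). *Kit*, its receptor on melanocytes and mast cells, was at -0.37, -0.43 and -1.11 (mean -0.64, limma adjusted p = 0.033), under 2-fold. Markers of RPE and melanocytes were lower in 8 of 10 cases with a median log2 ratio of -4.53, and their part in these values was not tested. *Hgf*, hepatocyte growth factor, and its receptor *Met* were in the low class, with *Met* at -0.51 and the brightest probe of *Hgf* not tested. With the scanner's ratio, *Met* (-1.40) and another *Hgf* probe (-1.93) passed as lower. That *Hgf* probe was well above background on no CPE array, and its ratio after loess was -0.42. The brightest *Hgf* probe had a mean of 0.24.

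Probes of 1 gene often differed. More than 1 probe was present for 30 genes, and in 23 of them the probes fell into different percentile classes. The brightest probe was the one nearest the 3' end of the gene in 21, and the probe nearest the 3' end was well above background in CPE on more arrays than the farthest probe in 16, on fewer in 3 and on as many in 11. The RNA was amplified from the poly(A) tail, and the part of this in the differences between probes was not tested. In each of the 9 genes with several probes and one past the threshold, only that probe passed, though of their 17 other probes 11 were tested, and in 7 of the genes it was the one nearest the 3' end. In *Egfr*, for instance, the 6 probes from the 5' to the 3' end had mean log2 ratios of -0.05, -0.0013, -0.38, -0.50, -1.14 and -0.59. These probes were designed on different transcripts of the gene, so position and transcript cannot be told apart. The 2 probes of *Kitl* were at -0.10 and -1.53, the 2 of *Fgf1* at 0.14 and -1.33. No gene had probes past the threshold in both directions.

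**Figure D3:**
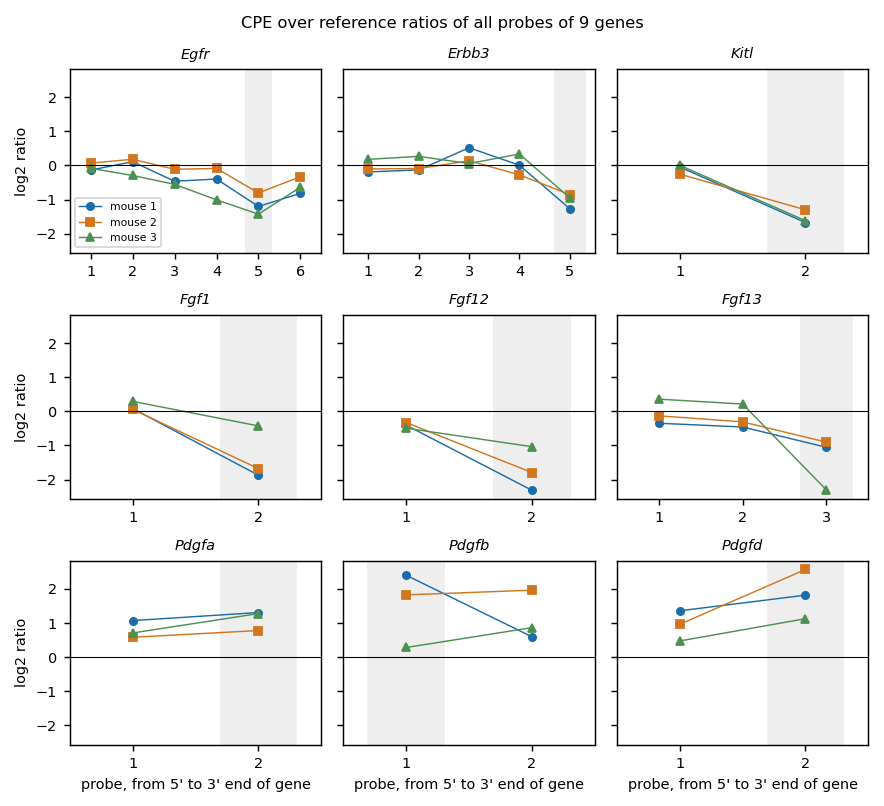
Log2 ratio of CPE over reference (y axis) in each mouse for every probe of the 9 genes with several probes and one past the threshold (grey band), ordered from the 5' to the 3' end of the gene (x axis; steps are not to scale). The dimmer probes of *Egfr*, *Erbb3*, *Kitl*, *Fgf1*, *Fgf12* and *Fgf13* lie nearer to 0 than the grey one, while the 3 PDGF genes lie above 0 at all their probes.

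All 13 probes past the threshold had the same sign in all 3 mice, as did 4449 of all 4462 probes past it, which passing a test against 0 favours. The ratio nearest 0 was that of mouse 3 in 8 of them, mouse 2 in 5 and mouse 1 in none, and over all of those it was mouse 3 in 60.6%. Over the 40 probes well above background in both channels, the median SD of the level between mice was 0.40 in CPE and 0.31 in the reference, against 0.34 and 0.31 over all 17951 such probes.

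Of the other genes of these pathways, 98 of 99 listed were on the array under a matching name and 89 were tested. There were 14 higher (15.7%) and 12 lower (13.5%) in CPE, beside the 9.1% and 11.3% of all genes, with a median log2 ratio of -0.08. The FGF receptors and Klotho coreceptors had 3 higher of 5 tested and none lower. *Kl*, the coreceptor through which FGF23 acts and a marker of this epithelium, had ratios of 6.11, 5.20 and 4.95 (mean 5.42, limma adjusted p = 9.1e-06). *Fgfr1* was at 2.28, 0.90 and 1.68 (mean 1.62) and the decoy-like *Fgfrl1* at 1.31, 1.41 and 0.76 (mean 1.16). *Fgfr2*, in the high class at 93.2, and *Fgfr3* were at -0.53 and -0.79 and did not pass.

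The VEGF coreceptors moved apart. *Nrp1*, which enhances VEGF binding to *Kdr*, was higher with ratios of 1.30, 1.12 and 0.96 (mean 1.13), and *Nrp2*, which serves VEGF-C and semaphorins, was lower with -2.18, -1.80 and -2.26 (mean -2.08). *Figf*, encoding VEGF-D, was at -0.22. Of the 6 hypoxia regulators of *Vegfa*, 3 were lower: *Egln3*, a prolyl hydroxylase that marks hypoxia-inducible factors for destruction, by a mean of -2.68, and the factor subunits *Epas1* and *Hif1a* by -1.19 and -1.08. None was higher, and with median centring *Egln3* alone of them passed. Of the 6, 5 were well above background in CPE on all arrays, and *Egln3* was the exception. The filter on both channels therefore left *Egln3* untested. *Epas1* did not pass without mouse 1.

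Outside the cell, heparan sulfate chains hold FGFs at their receptors. Among these proteoglycans and the FGF binding proteins, *Gpc4* was higher (1.70) and *Gpc3* (-2.86), *Fgfbp1* (-1.32) and *Sdc1* (-1.10) were lower, of 11 tested. With median centring 3 were higher and 2 lower, and *Sdc1* did not pass. Ligand processing had 2 higher of 10 and none lower, *Furin* (1.79), a proprotein convertase, and *Spint2* (1.68), an inhibitor of the proteases that activate HGF.

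Within the cell, none of the 16 adaptors tested was past the threshold by limma, and 3 above and 6 below 0 had an unadjusted p under 0.05, all with changes under 2-fold. With median centring 2 adaptors were higher, with the scanner's ratio 2 were lower, and without mouse 1 or 2 there were 2 and 1 lower. The Ras and MAP kinase list had *Hras* (1.41) and *Map2k2* (1.03) higher and *Map2k1* (-1.43) lower of 12, and the 2 MEK kinases had opposite signs in every mouse, with *Map2k1* at -1.30, -1.81 and -1.20 and *Map2k2* at 1.15, 0.95 and 1.00. With median centring *Map2k1* did not pass, and without mouse 1 *Map2k2* and *Akt2* did not. For PI3 kinase and Akt, *Pik3r2* (1.19) and *Akt2* (1.09) were higher of 9. None of the 3 ETS factors passed in limma, nor had any an unadjusted p under 0.05, and of the 3 other EGF family ligands none passed and 2 were below 0 at an unadjusted p under 0.05.

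The feedback inhibitors and receptor antagonists held the most genes past the threshold, 7 of 11. *Spred2* (1.29), *Spred1* (1.22) and *Spry1* (1.10), inhibitors of the Ras cascade, were higher. *Dusp6* (-2.95), the phosphatase of ERK, *Lrig1* (-2.14) and *Lrig3* (-1.15), which act on receptors of the EGF family, and *Errfi1* (-1.27), an inhibitor of EGFR, were lower, of which *Lrig3* and *Errfi1* did not pass with median centring. The mice of *Dusp6* were at -3.14, -3.10 and -2.63, and those of *Spred2* at 1.32, 1.54 and 1.01.

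**Figure D4:**
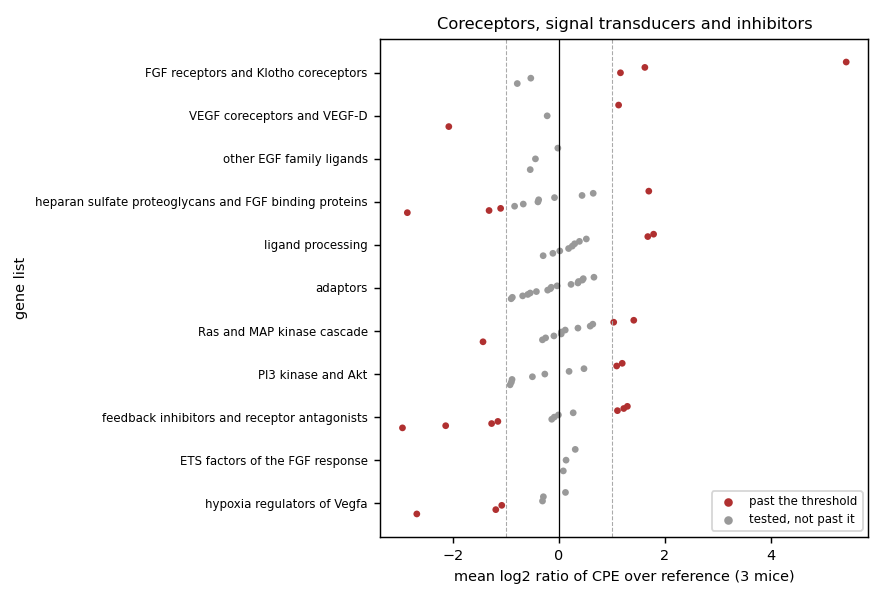
Mean log2 ratio of CPE over reference in 3 mice (x axis) for the 89 tested genes of 11 lists of pathway genes outside the 54 (y axis), each point 1 gene by its brightest probe. Red points passed the threshold, dashed lines mark 2-fold, and the point farthest to the right is *Kl* at 5.42.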

How the data were processed

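Gene expression was measured in the CPE of 3 mice against 1 common RPE and choroid reference. The deposited scanner tables, which the authors produced in Agilent Feature Extraction 9.5.3.1, hold the intensity of each spot and of its local background in both channels, the flags used here (well above background, saturated, outlier) and a log10 ratio of red over green after the software's own correction of background and dye. A further deposited table holds 1 log2 value per spot and array, normalized by the authors with Aquantile (limma in R 2.14.0, per the labels). Its rank correlation with the red channel was 0.993 to 0.996, so it holds levels of CPE and not ratios. It served as an alternative only.

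Values were computed with R 4.3.3 and limma 3.58.1. For percentiles, the mean red intensity was taken as log2 without background correction, normalized with Aquantile, averaged over mice and ranked over all 41174 probes. Classes followed the study's methods. For ratios, intensities were corrected with normexp (offset 50) and normalized with loess within arrays, without control or outlier spots, and replicate spots of a probe were averaged. The limma model had an intercept alone, with Benjamini-Hochberg adjustment over all 25847 probes that the flag put well above background in CPE or reference on every array. The reference was 1 RNA and its spread between animals is not part of the error. Each mouse lay on its own slide, so mouse and slide cannot be told apart. Where a channel was not well above background on any array, the fold is a bound: the mean of the brighter channel against the dimmer one, each array held at or above its lowest signal among probes well above background, after loess and Aquantile.

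Described in full were genes past the threshold, in the high class or with a bound of at least 2-fold (no bound reached it), and of the pathway lists up to 3 genes with the largest ratios past the threshold in each direction. *Lrig3* and values of genes short of the threshold go beyond this rule and were chosen after their values were seen. The rule for the members uses symbols alone, but the families, lists and tests were chosen with earlier results of these data known. All 54 gene names matched a current RefSeq symbol. Probe coordinates are those of the files (mm8). Exons, introns and UTRs are not given, since no mm8 annotation was used. Promoters come from RefSeq (GRCm38.p6). The test was tried on simulated data, but the changes planted there were larger than any past the threshold in the 54 genes. That trial therefore does not cover the range of the ratios reported for them. Alternatives were the background correction, the scanner's ratio, median centring, the filters, limma's treat test, array weights and leaving out each mouse, and for levels the normalization and the probes ranked. The same settings were run for the pathway lists, a choice made after seeing the data.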

Additional observations from a re-analysis of the deposited data

How the results depend on the processing

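No result past the threshold changed sign under any of the 10 alternatives for the ratio. The number of probes of the 54 genes higher and lower in CPE, 6 and 7, became 11 and 13 with the scanner's log ratio and 14 and 5 with median centring in place of loess. Under median centring the median ratio of all tested probes moved from -0.040 to 0.092, and 3745 probes in all were higher and 1842 lower, against 1833 and 2629. With limma's treat test against 2-fold, 0 were higher and 0 lower, while 2 and 2 had an unadjusted p under 0.05. Leaving out 1 mouse gave 5 to 9 higher and 7 lower each time, of which 6 to 7 were shared, with *Vegfa* lower without mouse 1 and *Fgf11* without mouse 3. Apart from treat, *Pdgfb* was lost with the filter on both channels and without mouse 1, *Fgf13* with the scanner's ratio, the filter on both channels and without mouse 3, *Erbb3* with no background correction, with median centring and without mouse 1, and *Fgf9* and *Egfr* with median centring. Pathway genes, 14 higher and 12 lower, became 22 and 6 with median centring and 3 and 5 with treat, and 12 to 15 and 13 to 14 without 1 mouse. When only probes well above background in CPE on all arrays were ranked, 3 of the 8 genes stayed in the high class (*Flt1*, *Kdr* and *Pdgfa*), since fewer dim probes were ranked. Without mouse 2, *Fgf18* entered that class and *Pdgfd* left it. The median SD between mice in CPE was 0.92 with median centring of each channel, against 0.40. The cause of the other moves was not tested.

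The study had 1 group, so no comparison between groups of mice was made. Signal over background limits the genes of low percentile, most of them FGF ligands: of the 54 genes, 30 had their brightest probe well above background in CPE on all arrays, and for the others no level common to the 3 mice was measured.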
